A study of Mus musculus with 6 samples.

Results

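The genes described here build cholesterol and fatty acids or govern that synthesis. They are 29 genes chosen by name, of the 41254 gene symbols in the deposited table, and divide into 18 enzymes of the sterol branch, 6 enzymes of the fatty acid branch and 5 regulators. The transcript rows of each symbol were summed. Mvd, the sterol enzyme that makes isopentenyl diphosphate, lies at a locus that the authors' software could not estimate, so 28 genes were compared. All 28 passed the filter on low counts, which left 14653 genes of the series to test. The RNA came from DN3a thymocytes of adult C57BL/6 mice, T cell precursors without CD4 or CD8 that have not yet been tested for a working T cell receptor beta chain. One group of 3 libraries (WT1 to WT3) was wild type, and the other group of 3 (TG1 to TG3) had the genotype Tg_Cd2_GATA3, called transgenic below. GATA3 is a zinc finger protein that T cell precursors need in order to mature. The genotype name joins Cd2 and GATA3, but which elements drive the transgene, in which cells, and from how many founder lines and animals, no source used here gives. Where nothing says that each library came from its own animal, a p-value measures only the spread between these libraries, part of which may be technical.

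Cholesterol is assembled from acetyl-CoA by way of mevalonate, isoprenoid units and squalene, which is closed into lanosterol and then trimmed to cholesterol. Fatty acid synthesis starts from the same cytosolic acetyl-CoA. Both branches are driven by membrane-bound transcription factors, the SREBPs encoded by Srebf1 and Srebf2. When the membrane of the endoplasmic reticulum is poor in sterol, SCAP carries an SREBP to the Golgi, where it is cut and released to the nucleus. When sterol is plentiful, INSIG proteins hold SCAP back and the genes of the pathway are turned down together. Dividing lymphocytes need both products for new membrane.

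The promoter sequences of 6 genes are shown because CCAAT was frequent in the windows of the sterol genes. Whether the motifs have a part in the differences between libraries described further on was not tested. RefSeq windows on GRCm38.p6 run from 250 bases before to 50 after an annotated start. None was found for Scd1, Scd2, Sqle, Fdft1, Fdps and Stard4. For the other 22 of the 28 genes there were 28 windows in all. They were searched on both strands for CCAAT, bound by NF-Y, for GGGCGG, the core of the GC box bound by SP1, for TCACNCCAC, a form of the sterol regulatory element, and for the E-box CACGTG. Capitals mark the matches, of which those on the other strand read as the reverse complement, each sequence runs 5′ to 3′ on the strand of its gene, and no matches of different motifs overlapped. Shown for the sterol branch are Hmgcs1, Mvk and Nsdhl, whose windows held the most CCAAT matches of that branch. Its other windows held from 0 (such as Acat2) to 3 (Hsd17b7 and Msmo1), so the sequences shown are not typical of it. Insig1 is shown for the regulators, and Fasn and Elovl6 for the fatty acid branch. The windows are chr13:119690101-119690400 (plus strand) for Hmgcs1, chr5:114444019-114444318 (plus) for Mvk, chrX:72918271-72918570 (plus) for Nsdhl, chr5:28071162-28071461 (plus) for Insig1, chr11:120824498-120824797 (minus) for Fasn and chr3:129532136-129532435 (plus) for Elovl6.
Hmgcs1: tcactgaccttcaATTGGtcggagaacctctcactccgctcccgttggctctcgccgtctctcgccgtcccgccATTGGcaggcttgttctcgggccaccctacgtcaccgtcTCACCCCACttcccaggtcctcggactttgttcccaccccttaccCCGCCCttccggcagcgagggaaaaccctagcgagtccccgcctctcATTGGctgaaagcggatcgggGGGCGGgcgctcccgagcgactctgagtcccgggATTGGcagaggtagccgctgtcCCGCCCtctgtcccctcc
Mvk: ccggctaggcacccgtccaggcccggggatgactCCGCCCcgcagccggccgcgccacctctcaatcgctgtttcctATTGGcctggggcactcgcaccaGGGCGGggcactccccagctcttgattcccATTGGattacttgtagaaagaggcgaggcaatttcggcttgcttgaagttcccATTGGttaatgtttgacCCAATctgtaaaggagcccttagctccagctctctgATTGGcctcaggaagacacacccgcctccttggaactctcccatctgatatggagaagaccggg
Nsdhl: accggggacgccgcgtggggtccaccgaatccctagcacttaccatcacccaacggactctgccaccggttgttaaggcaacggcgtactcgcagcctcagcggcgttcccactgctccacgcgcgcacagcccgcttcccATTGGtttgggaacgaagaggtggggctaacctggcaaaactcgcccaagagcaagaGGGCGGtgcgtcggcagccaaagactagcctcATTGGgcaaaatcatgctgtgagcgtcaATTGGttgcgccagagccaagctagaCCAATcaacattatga
Insig1: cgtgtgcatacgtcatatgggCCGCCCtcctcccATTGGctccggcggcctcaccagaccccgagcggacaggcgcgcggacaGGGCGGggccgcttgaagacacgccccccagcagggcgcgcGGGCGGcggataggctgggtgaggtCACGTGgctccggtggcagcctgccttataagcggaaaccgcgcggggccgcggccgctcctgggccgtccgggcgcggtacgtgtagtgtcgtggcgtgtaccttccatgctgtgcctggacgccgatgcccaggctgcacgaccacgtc
Fasn: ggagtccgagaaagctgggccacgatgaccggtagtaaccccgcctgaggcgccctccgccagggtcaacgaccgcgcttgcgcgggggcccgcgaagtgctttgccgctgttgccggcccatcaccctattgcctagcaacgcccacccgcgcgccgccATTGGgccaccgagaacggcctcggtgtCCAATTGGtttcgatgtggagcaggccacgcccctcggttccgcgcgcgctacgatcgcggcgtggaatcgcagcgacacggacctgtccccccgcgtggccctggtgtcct
Elovl6: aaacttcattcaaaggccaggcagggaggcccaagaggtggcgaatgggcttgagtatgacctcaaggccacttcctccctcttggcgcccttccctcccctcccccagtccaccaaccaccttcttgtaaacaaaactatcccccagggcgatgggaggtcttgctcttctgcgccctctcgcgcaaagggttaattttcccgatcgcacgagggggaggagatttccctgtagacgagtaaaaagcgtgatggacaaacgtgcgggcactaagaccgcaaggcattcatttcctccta
CCAAT was found in 13 of the 14 sterol genes with a window (92.9%), all but Acat2, against 42.9% of the tested genes with a window and 41.1% of all genes with one. By window, it stood in 76.5% of the sterol windows and 37.4% of all 32851 windows. At least 2 copies in 1 window were found in 8 of the 14 sterol genes (57.1%), against 13.3% of all genes. The Mvk window held 5 copies, the Hmgcs1 and Nsdhl windows 4 each. The GC box was in 82.4% of sterol windows, 60.3% of the windows of tested genes and 35.7% of all windows, so the tested genes as a whole were rich in it. TCACNCCAC was found once among the members, in Hmgcs1, and in 1.24% of all windows. CACGTG was found in 3 of the 14 sterol genes and in 2 of the 4 regulators with a window, Insig1 among them, against 11.5% of the tested genes and 8.09% of all genes with a window (7.15% of all windows). Of the 4 fatty acid genes with a window, Acly and Fasn held CCAAT and 1 held GGGCGG, and the Elovl6 window held none of the motifs. A match is a description of the letters, and binding was not measured.

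The libraries held 39022272 to 46985605 fragments assigned to genes. Y-linked RNA was found in WT1 (18522 fragments) and TG3 (16840), and hardly in the rest (16 to 26). Gata3 itself stood at 43.6 ± 5.48 CPM (fragments scaled to the library total by TMM) in wild type and 57.9 ± 4.05 CPM in the transgenic group (SD, n = 3 each), with no overlap. It was 1.33-fold higher but did not pass the test (edgeR, log2 fold change 0.41, SE 0.10, adjusted p = 0.17). The 9 genes of the DN3 list summed to between 7055 and 8535 CPM in WT1 to WT3 and between 7844 and 8470 CPM in TG1 to TG3. Dntt was the highest of them in every library, at 2940 to 4059 CPM, and Cd44 the lowest, at 3.68 to 5.77 CPM. Markers of the next thymocyte stages ranged from 34.7 to 43.9 CPM in sum in WT1 to WT3, and from 13.2 to 30.9 CPM in TG1 to TG3. The 4 adipocyte markers summed to at most 0.24 CPM, with Adipoq and Lep at 0, the 4 fibroblast markers to at most 0.26 CPM. Macrophage, dendritic and erythroid markers each summed to at most 11.7 CPM, and of the B cell and thymic epithelium lists 4 of 5 markers each were under 1 CPM in every library, Pax5 at 0, the exceptions being Cd79b and Epcam.

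None of the 28 genes was called different between transgenic and wild-type cells. The smallest adjusted p was 0.401 (Scd2; edgeR quasi-likelihood test, Benjamini-Hochberg adjustment over all tested genes). Only 2 of the 14653 tested genes were called at all, 0.0136% (P2ry1 and Zfp36l2, both higher in transgenic cells), so a count of 0 among 28 is near that background. At an unadjusted p under 0.05 the members again numbered 0 of 28, beside 13.4% of all tested genes (5.71% higher and 7.7% lower in transgenic cells). DESeq2 called 493 genes, 5.08% of those it adjusted over, and 0 of the 27 members with an adjusted p. The log2 fold change was below 0 for 20 of the 28 genes and above 0 for 8, with a median of -0.078, while 50.2% of all tested genes lay above 0 with a median of 0.0011. This split rested on TG1: without that library 12 of the 28 genes lay below 0 and 16 above, and the median was 0.016.

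The 95% intervals of the log2 fold changes bound what the libraries could have missed, and all 28 included 0. For 25 of the 28 genes the interval lay within a 1.5-fold difference in either direction, the exceptions being Mvk, Scd1 and Stard4, and for 27 it lay within 2-fold, the exception being Scd1. On simulated data with the same library sizes, the test recovered 39.4% of genes changed 1.5-fold and 59.1% of those changed 2-fold, so a call could be missed even for changes of that size. The changed genes were drawn at random from all tested genes, rare ones included, so these shares need not hold for the members.

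**Figure D1:**
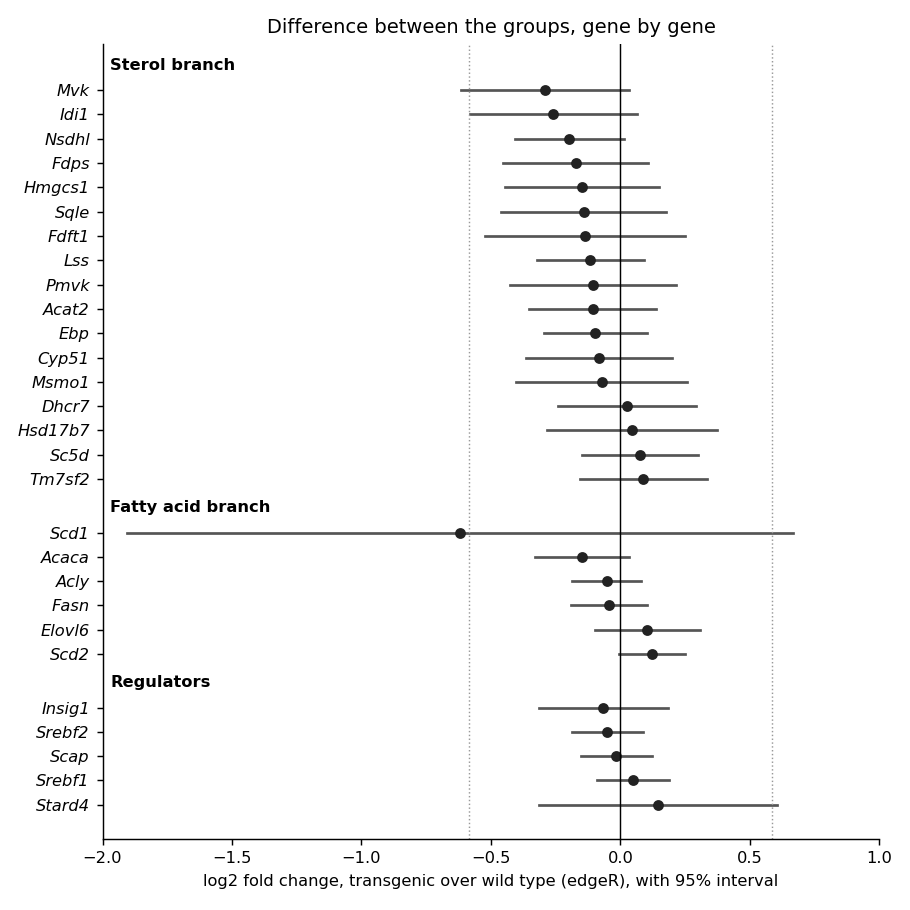
Log2 fold change of transgenic over wild type (x axis) for each of the 28 genes (y axis), grouped by branch, with the 95% interval from the edgeR fit. Points are estimates from 3 libraries a group, and dotted lines mark a 1.5-fold difference. Every interval crosses 0, 13 of the 17 sterol genes lie left of it, and Scd1 has the widest interval, from -1.91 to 0.67.

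The sterol branch had 13 genes below 0 and 4 above 0, and the median log2 fold change was -0.11. None was called. Nsdhl was the 1 member of all 28 whose groups did not overlap, 3.57% of the members beside 18.8% of all tested genes (10.1% lower and 8.73% higher in transgenic libraries), a share below the background. The median itself rested on single libraries: it was -0.013 without TG1, -0.23 without TG2 and -0.071 without WT3. Below 0 were then 9, 14 and 11 of the 17 genes.

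The first steps turn acetyl-CoA into mevalonate and its phosphates. Hmgcs1 (ENSMUSG00000093930, chromosome 13, 119690379 to 119708260, plus strand, mm10 coordinates), which makes HMG-CoA, stood at 180.7, 201.4 and 232.7 CPM in WT1, WT2 and WT3 and at 154.3, 224.9 and 174.9 CPM in TG1, TG2 and TG3. TG1 and TG3 lay below all wild-type libraries, and TG2 lay inside the wild-type range. The groups differed by -0.15 on the log2 scale (SE 0.13; edgeR, adjusted p = 0.685). An annotated gene on the opposite strand, Gm48342, covers 557 bases of its exons (12.1%), and no source used here says whether the counting used strand. Acat2, the thiolase that joins acetyl-CoA units ahead of it, had 70.3 ± 4.19 CPM against 65.3 ± 10.5 CPM (wild type, then transgenic; SD, n = 3 each).

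Mvk (ENSMUSG00000041939, chromosome 5, 114444269 to 114460591, plus strand), which phosphorylates mevalonate, showed the lowest fold change of the sterol branch. Its values were 25.1, 36.4 and 33.0 CPM in wild type and 23.3, 29.3 and 24.6 CPM in TG1, TG2 and TG3. WT1 lay among the transgenic libraries, and the other wild-type libraries lay above all of them. The log2 fold change was -0.29 (SE 0.14), the interval running from -0.61 to 0.03 (edgeR, adjusted p = 0.429). Pmvk, the next kinase, was at 16.0 ± 1.39 against 14.8 ± 2.60 CPM (SD, n = 3 each). Mvd was listed at 0 in the 3 wild-type libraries and with 1153, 1336 and 1074 fragments in the transgenic ones. Those zeros are failed estimates, marked as such in the authors' table, so no comparison was made for Mvd.

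Idi1 and Fdps make and join the isoprenoid units. Idi1, the isopentenyl diphosphate isomerase, had 112.0, 131.4 and 150.1 CPM in WT1, WT2 and WT3. It had 90.3, 135.9 and 102.7 CPM in the transgenic ones. The layout was that of Hmgcs1, with TG1 and TG3 below the wild-type range, and the log2 fold change of -0.26 (SE 0.14) did not pass the test (edgeR, adjusted p = 0.485). Fdps, which makes farnesyl diphosphate for sterols and for protein prenylation, read 179.9, 199.6 and 221.8 CPM in wild type against 153.1, 217.2 and 163.1 CPM, a log2 fold change of -0.17 (SE 0.13, edgeR, adjusted p = 0.606). It had the same layout again. A same-strand gene model, Gm43738, shares 26.7% of the exon bases of Fdps, so the division of fragments between them is uncertain.

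Squalene is made by Fdft1, oxidised by Sqle and closed into lanosterol by Lss. Fdft1 had the widest relative spread of the sterol genes inside the transgenic group, with 35.7, 62.4 and 50.6 CPM, around wild-type values of 55.3, 48.8 and 59.5 CPM. The lowest and the highest of the 6 libraries were thus both transgenic. Its exons share 774 bases (18.3%) with Ctsb on the opposite strand. Sqle, a rate-limiting oxidase of the branch, read 87.7, 104.1 and 109.4 CPM in wild type and 70.3, 109.2 and 93.4 CPM in TG1, TG2 and TG3. Only TG1 lay outside the wild-type range, and the groups differed by -0.14 on the log2 scale (SE 0.14; edgeR, adjusted p = 0.728). Lss was steadier, at 80.5 ± 2.45 CPM against 74.2 ± 9.68 CPM (wild type, then transgenic; SD, n = 3 each).

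The enzymes that trim lanosterol split by sign. Cyp51, the demethylase that starts the trimming, had 122 ± 18.5 CPM against 115 ± 18.8 CPM (wild type, then transgenic; SD, n = 3 each). Msmo1, a methyl sterol oxidase, had 60.4 ± 9.20 and 57.4 ± 10.9 CPM (SD, n = 3 each). The genes with a log2 fold change above 0 all belong to this last stretch. They were Tm7sf2 and Hsd17b7, both sterol reductases, at 0.09 ± 0.11 (SE) and 0.05 ± 0.15 (SE), and Sc5d and Dhcr7, which act at the end of the route, at 0.07 ± 0.10 (SE) and 0.02 ± 0.12 (SE). None of the 4 differed beyond its error, with adjusted p from 0.788 to 0.958 (edgeR). Dhcr7, Hsd17b7, Tm7sf2 and Sc5d each took the other sign in at least 1 alternative fit. Tm7sf2 shares 12.1% of its exon bases with Vps51 on the same strand, so the division of fragments between them is uncertain.

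Nsdhl (ENSMUSG00000031349, chromosome X, 72918557 to 72958514, plus strand), a sterol dehydrogenase, had 27.5, 31.4 and 27.6 CPM in WT1, WT2 and WT3. Its transgenic values were 24.0, 26.4 and 25.1 CPM. All transgenic values lay below all wild-type values, the nearest pair being 26.4 and 27.5 CPM. The log2 fold change was -0.20 (SE 0.09), the interval running from -0.41 to 0.01, and it did not pass the test (edgeR, adjusted p = 0.408). Y-linked RNA marks 1 library in each group. Within the other libraries the values were 31.4 and 27.6 CPM against 24.0 and 26.4 CPM. Groups that are already apart stay apart when libraries are left out, so these values add no check. Ebp, the other X-linked enzyme of the branch and the isomerase of the sterol ring, overlapped between the groups, at 37.5 ± 1.40 and 35.1 ± 2.81 CPM (SD, n = 3 each).

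The sterol genes differed more between libraries of 1 group than between the groups. On the log2(CPM + 0.5) scale the median within-group SD of the 17 genes was 0.22, while the median size of their log2 fold changes was 0.11. Over all tested genes these medians were 0.15 and 0.14. The median SD was 0.10 for the 8467 tested genes with a mean of 10 to 300 CPM, a range that holds all 17. The log2 fold change was larger than the gene's own within-group SD for 3 of the 17, Mvk, Nsdhl and Ebp, beside 49.3% of all tested genes. TG1 was the lowest transgenic library for 16 of the 17 sterol genes (94.1%), all but Ebp, beside 34.8% of all tested genes. TG2 was the highest for 14 of the 17 (82.4%), beside 32.9% of all tested genes. Over both groups, TG1 was the lowest of the 6 libraries for 14 of the 17 sterol genes, 3 of the 6 fatty acid genes and all 5 regulators, 22 of 28 in all (78.6%), beside 17.5% of all tested genes. Among wild-type libraries, replicate 1 was lowest for 12 of 17 (70.6%, beside 37.5%) and replicate 3 highest for 11 of 17 (64.7%, beside 29.9%). These comparisons between libraries were chosen after the values were seen, and they carry no test.

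The ratio of TG2 to TG1 gives the size of this gap. It had a median of 1.36 over the sterol genes and lay above 1 for 17 of 17, although for Ebp it was 1.0001. Over all tested genes the same ratio had a median of 0.9996 and lay above 1 for 50.2%. The largest ratios of the sterol genes belonged to Fdft1 at 1.75, Sqle at 1.55, Idi1 at 1.505, Msmo1 at 1.47 and Hmgcs1 at 1.46. Their smallest belonged to Nsdhl at 1.10, Dhcr7 at 1.10, Tm7sf2 at 1.03 and Ebp. In wild type the ratio of replicate 3 to replicate 1 had a median of 1.13 over the sterol genes and lay above 1 for 14 of 17, with Idi1 and Cyp51 both at 1.34, while over all tested genes its median was 0.998 and 50.01% lay above 1.

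**Figure D2:**
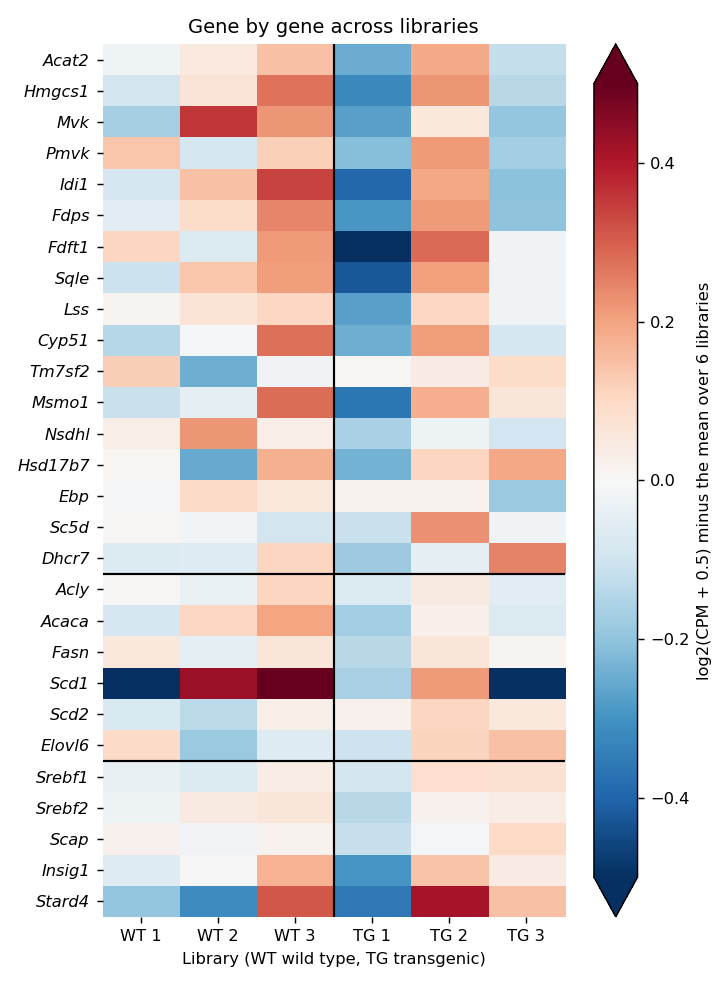
Level of each of the 28 genes (rows, in pathway order, with lines between the sterol branch, the fatty acid branch and the regulators) in each library (columns, WT wild type and TG transgenic), as log2(CPM + 0.5) minus the mean of the gene over the 6 libraries. Red is above and blue below the mean, and the colour scale ends at 0.5 in either direction, which Scd1 and Fdft1 pass. TG1 is blue for most of the sterol genes and TG2 red, a contrast inside 1 group.

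Averaged over the 17 genes, the sterol branch stood at -0.03, 0.03 and 0.16 (log2, relative to each gene's mean) in WT1, WT2 and WT3 and at -0.25, 0.14 and -0.05 in TG1, TG2 and TG3. The gap between the group means was -0.11, against SDs of 0.09 in wild type and 0.19 in the transgenic group and a range of 0.39 inside the latter. The fatty acid branch with Scd1 ran from -0.16 in WT1 to 0.22 in WT3. Without Scd1 it stayed between -0.09 in TG1, its lowest library, and 0.07 in TG2, its highest. Among other lists, the 20 cell division genes averaged -0.03, 0.39 and 0.38 in wild type and -0.18, -0.12 and -0.44 in transgenic replicates, and 11 immediate early and stress genes averaged -0.23, -0.13 and -0.66 against 0.26, 0.03 and 0.73. All 20 division genes had a log2 fold change below 0 and all 11 stress genes one above 0, although edgeR called none of them. At an unadjusted p under 0.05 all 20 division genes were lower, beside 7.7% of all tested genes, and 8 of the 11 stress genes were higher, beside 5.71%. DESeq2 called all 20 division genes lower, beside 3.36% of the genes it adjusted over, and 2 stress genes of the 9 with an adjusted p higher, beside 1.72%. The lowest transgenic library was TG1 for the sterol branch and TG3 for the division genes. The highest wild-type library was WT3 for the sterol branch, while WT2 and WT3 were nearly level for the division genes (0.39 and 0.38). In both lists WT1 was the lowest wild-type library and TG2 the highest transgenic one. The part of the division list or of the stress list in the sterol values was not tested. In bulk RNA, fewer cells that make a transcript and less of it per cell cannot be told apart.

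**Figure D3:**
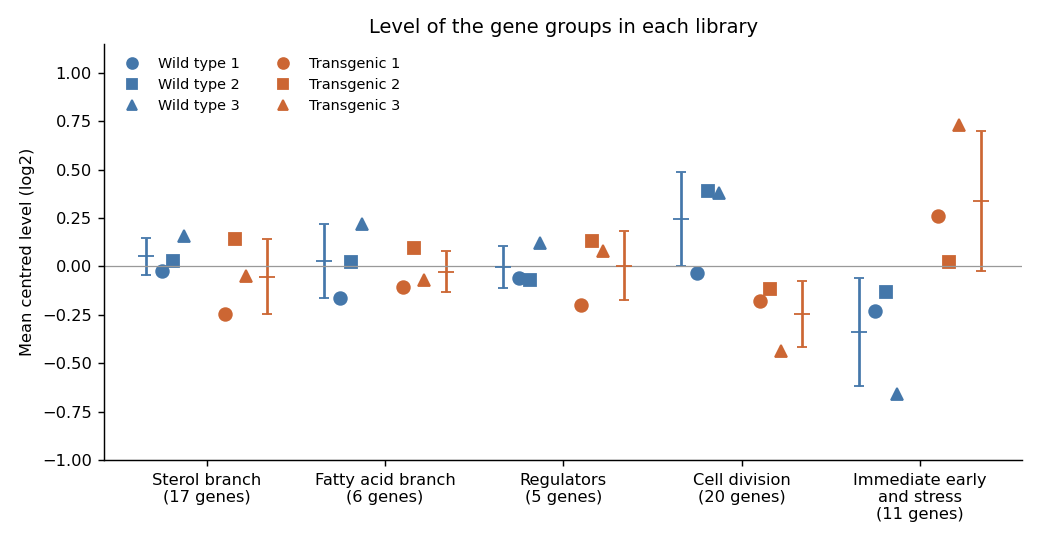
Mean level of each gene list (x axis, with the number of genes) in each library, as log2(CPM + 0.5) minus the mean of each gene over the 6 libraries (y axis). Points are libraries (circle replicate 1, square replicate 2, triangle replicate 3), and the bars beside them give the mean and SD of 3 libraries. The groups overlap for the sterol branch, the fatty acid branch and the regulators, with TG1 lowest in the sterol branch at -0.25 and among the regulators at -0.20, and they are apart for the cell division list and for the stress list.

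The fatty acid branch had 4 genes below 0 and 2 above, none was called, and the median log2 fold change was -0.049. Acly, which supplies cytosolic acetyl-CoA, read 465.8, 452.5 and 498.7 CPM in wild type and 442.0, 477.4 and 445.7 CPM in TG1, TG2 and TG3. Acaca, the carboxylase that makes malonyl-CoA, read 230.2, 262.1 and 279.8 CPM against 216.1, 248.1 and 232.1 CPM. Its log2 fold change of -0.15 (SE 0.08; edgeR, adjusted p = 0.468) was larger than its own within-group SD of 0.12, but the groups overlapped through WT1. Fasn, the synthase that builds palmitate, was level at 521.6 ± 20.7 CPM against 506.2 ± 36.1 CPM (wild type, then transgenic; SD, n = 3 each), a log2 fold change of -0.04 (SE 0.07).

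The genes that act on finished fatty acids pointed the other way, apart from Scd1. Scd2 (chromosome 19, 44293674 to 44306864, plus strand) and Scd1 (44394455 to 44407879, minus strand) lie near each other. Scd2, a stearoyl-CoA desaturase, was at 918.5, 881.1 and 987.5 CPM in wild type and at 983.2, 1044.3 and 1004.8 CPM in TG1, TG2 and TG3. The groups overlapped only because WT3 lay just above TG1. This was the smallest p of the 28 genes (unadjusted p = 0.060), with a log2 fold change of 0.12, a standard error of 0.06 and an interval from -0.0063 to 0.25 (edgeR, adjusted p = 0.401). Elovl6, which lengthens palmitate, had 78.4 ± 7.75 against 84.2 ± 7.77 CPM (SD, n = 3 each), a log2 fold change of 0.10 (SE 0.09). Scd1, the desaturase of liver and fat, was rare, with 28, 113 and 173 fragments in WT1, WT2 and WT3 and 60, 79 and 40 in TG1, TG2 and TG3. WT1 and WT3 were the lowest and the highest of the 6, and the log2 fold change of -0.62 had an SE of 0.57 (edgeR, adjusted p = 0.703).

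The 5 regulators had the smallest spread of fold changes, from -0.07 to 0.15, with a median of -0.015 and adjusted p from 0.782 to 0.946 (edgeR). Without TG1 their median was 0.056, and without WT3 it was 0.0056. Srebf1 stood at 186.8, 182.5 and 196.6 CPM in wild type and 180.0, 203.1 and 202.0 CPM in TG1, TG2 and TG3. Srebf2 stood at 163.5, 171.8 and 173.8 CPM against 151.5, 169.2 and 171.1 CPM. Both SREBP genes thus varied little, with log2 fold changes of 0.05 (SE 0.06) and -0.05 (SE 0.06). Scap, which escorts them, was as level, at 146 ± 2.03 CPM against 144 ± 10.7 CPM (wild type, then transgenic; SD, n = 3 each).

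Insig1 and Stard4 varied more between libraries than Srebf1, Srebf2 and Scap. Insig1, the protein that retains SCAP, read 72.8, 76.1 and 85.8 CPM in wild type and 61.9, 84.1 and 78.2 CPM in TG1, TG2 and TG3. Stard4, which moves cholesterol between membranes, read 41.5, 38.2 and 59.2 CPM against 37.1, 63.7 and 52.9 CPM. In both, TG1 was the lowest of the 6 libraries, as it was for the other 3 regulators. From TG1 to TG2 the ratio was 1.36 for Insig1 and 1.72 for Stard4, beside 1.13 for Srebf1, 1.12 for Srebf2 and 1.08 for Scap. The log2 fold changes between the groups were -0.07 (SE 0.11) for Insig1 and 0.15 (SE 0.20) for Stard4.

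Levels between genes were compared per length, as FPKM (fragments scaled to transcript length and library depth). Scd2 led in wild type at 191 ± 12.7 FPKM (SD, n = 3), followed by Fdps at 143 ± 17.9, Acly at 95.4 ± 7.11 and Hmgcs1 at 69.4 ± 8.58 FPKM (SD, n = 3 each). In transgenic cells the order began the same way, with 209 ± 9.51 FPKM for Scd2, 128 ± 23.6 for Fdps and 95.4 ± 3.02 for Acly (SD, n = 3 each). Srebf1 at 64.3 FPKM was above Srebf2 at 30.4 FPKM in wild type. Srebf1 is a sum over 12 transcripts and Srebf2 rests on 1, so this gap depends on how fragments were divided among transcripts. The main transcript, Srebf1-201, took 35.2% to 46.6% of the FPKM of Srebf1 in wild type. In CPM, which takes no account of length, Srebf1 and Srebf2 stood at 189 and 170. The lowest was Scd1 at 0.50 ± 0.35 FPKM (SD, n = 3), far under the other desaturase, Scd2. Of the 27 neighbouring pairs in the wild-type order, 20 overlapped between their libraries. The steps that did not were Scd2 over Fdps over Acly over Hmgcs1, Fasn over Acaca, Sc5d over Dhcr7, and Pmvk over Hsd17b7 over Scd1.

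**Figure D4:**
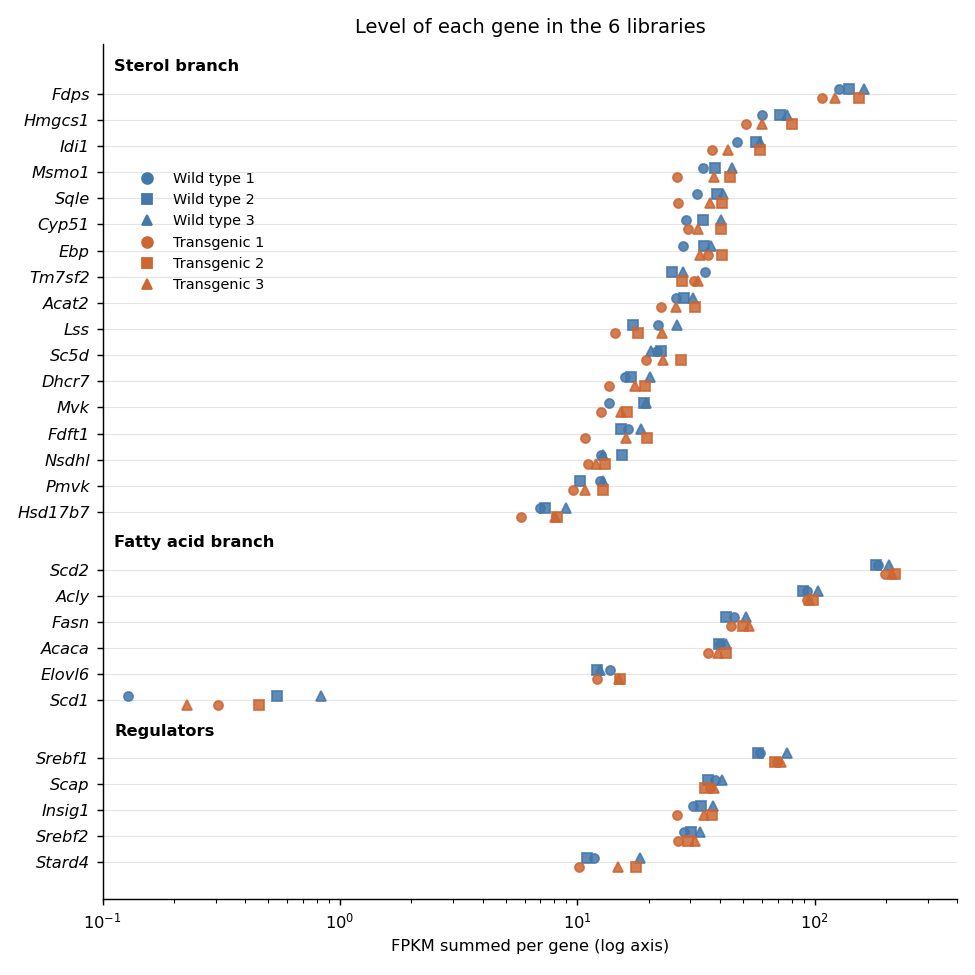
FPKM summed per gene (x axis, log scale) of the 28 genes in each library (circle replicate 1, square replicate 2, triangle replicate 3; wild type in blue, transgenic in orange), ordered by the wild-type mean within each branch. Scd2 leads at 182 to 218 FPKM and Scd1 trails at 0.13 to 0.83 FPKM, and in most rows the groups overlap.

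The division of a gene's FPKM among its transcripts is a separate estimate in the same table. Of the 28 genes, 20 had several transcripts, and for 4 of these the share of the main transcript was lower in every transgenic than in every wild-type library. That is 20% of the 20, beside 6.15% of the 9249 tested genes with several transcripts (10.1% in either direction). No member's main transcript had a share that was higher in that way. The 4 genes were Fasn, Ebp, Cyp51 and Sqle, and they were singled out after their values were seen. The main Fasn transcript, Fasn-201, took 94.4%, 96.1% and 91.5% of the gene's FPKM in wild type and 85.7%, 86.3% and 84.0% in TG1, TG2 and TG3. The balance lay in short models annotated as retained introns, of which Fasn-202 took 0%, 2.30% and 4.14% in wild type and 7.83%, 8.02% and 9.75% in transgenic libraries. For Ebp-201 the shares were 77.8%, 65.9% and 58.4% against 56.2%, 41.8% and 49.4%.

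The steps were smaller for the other two. Cyp51-201 took 93.7% to 98.0% in wild type and 88.1% to 93.5% in transgenic libraries, and Sqle-201 took 92.4% to 94.2% and 88.6% to 91.5%. FPKM gives a fragment of a short transcript more weight than one of a long transcript. On the log2(FPKM + 0.1) scale with limma, the log2 difference of Ebp was 0.15 and that of Fasn 0.08, where the fragment counts gave -0.10 and -0.04. In the authors' deposited table, 111 transcripts of these genes were tested, 0 were marked significant, and the smallest q-value was 0.998. Of all 44416 transcripts tested there, 111 were marked significant, so a count of 0 is near that background.

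**Figure D5:**
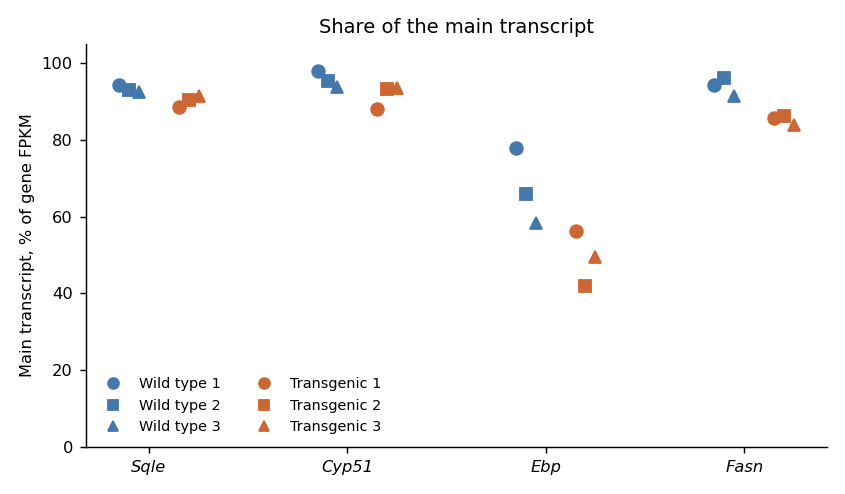
Share of the main transcript in the gene's summed FPKM (y axis, percent) in each library for the 4 genes whose groups do not overlap (circle replicate 1, square replicate 2, triangle replicate 3; wild type in blue, transgenic in orange). Transgenic libraries lie below all wild-type libraries for Sqle, Cyp51, Ebp and Fasn, with the widest gap for Fasn, 84.0% to 86.3% against 91.5% to 96.1%, and the widest spread for Ebp.

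The 4 wider lists of the same pathways held no gene called by edgeR. Of 13 genes of SREBP processing and sterol sensing, 7 lay above 0 and 6 below, and the median log2 fold change was 0.01. Their smallest p belonged to Mbtps1, the Golgi protease that makes the first cut, at -0.15 ± 0.06 (SE). Next came Pgrmc1 at -0.18 ± 0.08 (SE) and Mbtps2, the protease of the second cut, at -0.26 ± 0.13 (SE). The groups overlapped for each of these genes. At an unadjusted p under 0.05, 1 of the 13 was lower (7.69%, beside 7.7% of all tested genes) and 0 were higher. Groups without overlap were found for 2 of the 13 in the higher direction (15.4%, beside 8.73%) and 0 in the lower (beside 10.1%). Of 10 tested genes for cholesterol uptake, storage and export, 9 lay above 0 and 1 below, with a median of 0.18. At an unadjusted p under 0.05, 3 of the 10 (30.0%) were higher, beside 5.71% of all tested genes, and 1 was lower, beside 7.7%. The groups did not overlap for 2 genes that were higher, beside 8.73% of all tested genes, and for 1 that was lower, beside 10.1%. Apoe, an apolipoprotein that carries cholesterol out of cells, stood at 17.7 ± 1.66 CPM against 26.4 ± 1.52 CPM (wild type, then transgenic; SD, n = 3 each). Its groups did not overlap, and the groups differed by 0.58 on the log2 scale (SE 0.10; edgeR, adjusted p = 0.159). DESeq2 called this 1 gene of the 10 (adjusted p = 0.000736), beside 1.72% of all genes called higher. Npc1, which releases cholesterol from lysosomes, was at 0.20 ± 0.08 (SE), and Scarb1, a lipoprotein receptor and the 1 gene below 0, at -0.20 ± 0.08 (SE).

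Of 12 genes of the isoprenoid side branches, 10 lay below 0 and 2 above, with a median of -0.07. Pdss1, which makes the ubiquinone side chain, was at -0.46 ± 0.16 (SE), Fntb, a farnesyltransferase subunit, at -0.35 ± 0.16 (SE) and Icmt, which methylates prenylated proteins, at 0.14 ± 0.07 (SE). Of 18 tested genes of other fatty acid synthesis and activation, 12 lay below 0 and 6 above, with a median of -0.05. At an unadjusted p under 0.05, 5 of these 18 (27.8%) were lower, beside 7.7% of all tested genes. Acsl5, an acyl-CoA synthetase, stood at 261 ± 7.28 CPM against 229 ± 7.57 CPM (wild type, then transgenic; SD, n = 3 each), with no overlap (log2 fold change -0.19, SE 0.05; edgeR, adjusted p = 0.197). Hsd17b12, a reductase of fatty acid elongation, was at -0.33 ± 0.10 (SE), and Acsl1, another acyl-CoA synthetase, at -0.38 ± 0.12 (SE), both without overlap. Of the 18 genes, 5 (27.8%) had no overlap of the groups in the lower direction, beside 10.1% of all tested genes, and 1 had none in the higher direction, beside 8.73%. DESeq2 called Acsl5 (adjusted p = 0.0417) and Hsd17b12 (adjusted p = 0.0411), 2 of the 17 genes of this list with an adjusted p, both lower, beside 3.36% of all genes.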

How the data were processed

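Per the labels' protocols, RNA was purified on QIAGEN RNeasy Micro columns with DNase, and ribosomal RNA was removed (Ribo-Zero Gold). TopHat2, Cuffdiff and the mm10 build are named in the submitters' processing notes, without versions, and no source used here gives the annotation or the strand setting. For each of 100144 transcripts and each library, the authors deposited an FPKM and an estimated count of fragments, per the file headers. The deposited table also holds externally scaled fragments (a signal proportional to the raw fragments, not used), and the authors' own comparison with a log2 fold change, a test statistic (a score, not used), a p-value and a q-value. It marks 466 transcripts of 197 genes as failed, and these genes, Mvd among them, were left out.

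The expected counts of a symbol's transcripts were added up and rounded. Genes were filtered with filterByExpr (minimum count 10, minimum total 15), scaled by TMM and tested with edgeR 4.0.16 (R 4.3.3), 3 transgenic against 3 wild-type libraries, two-sided, with no covariate, Benjamini-Hochberg adjustment over 14653 genes and a threshold of 0.05. Standard errors come from the F statistic. The common biological coefficient of variation was 19.5%. No pair of libraries looked like a duplicate (chi-square per gene 16.7 to 44.6 within groups). The test was tested on simulated data, with fold sizes of 1.5, 2 and 4. Alternatives used DESeq2 1.42.0, limma 3.58.1 and other edgeR settings. Promoter windows are those of RefSeq, and exon overlaps come from GENCODE on GRCm38. The rule names all members, Gata3, the 3 genes of smallest p in each wider list, and markers at or near 0. The members and lists were chosen with earlier results of these data known. Hacd2, Hacd3 and Adgre1 of the lists were not analysed here.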

Additional observations from a re-analysis of the deposited data

How the results depend on the processing

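No member passed the threshold under any of the 16 alternatives, apart from Mvd, which was called in the fit that keeps failed loci (1 member and 1 sterol gene called) because its wild-type values there are failed estimates. Over the other 445 values of single members, the smallest adjusted p was 0.0916 (Mvk), and 31 values in 15 members had another sign than in the main analysis, while 13 members kept 1 sign. The number of genes called among all tested was 493 with DESeq2, 127 with no filter on low counts, 1 with a mean FPKM of at least 5, 4 with limma on log2(FPKM + 0.1), 256 with a covariate for Y-linked RNA, 260 without the libraries with Y-linked RNA and 92 with failed loci kept, and it ran from 1 to 498 when 1 library was left out. Of the same-numbered libraries, numbers 1 and 2 deviated together (correlations 0.18 and 0.14), and number 3 did not (0.0017). WT3 and TG2, of different numbers, also deviated together (0.16), so the numbers were not taken as pairs. With the replicate block, 14 genes were called, 0 of them members, and the sterol median was -0.12.

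On FPKM, the sign differed from that of the counts for Hsd17b7 (-0.086 on log2(FPKM + 0.1) and -0.076 on log2(FPKM + 1)), Ebp (0.15 on both), Dhcr7 (-0.078 and -0.074), Acly (0.0017 on both) and Fasn (0.077 and 0.075), and the fatty acid median was 0.077 and 0.075, there without Scd1. Without the libraries with Y-linked RNA, Hsd17b7 was at -0.036 and Dhcr7 at -0.14. Leaving out 1 library at a time moved Fdft1 from -0.33 to 0.054, Sqle from -0.29 to 0.015, Cyp51 from -0.21 to 0.043, Tm7sf2 from -0.0032 to 0.18, Msmo1 from -0.18 to 0.075, Hsd17b7 from -0.062 to 0.17, Sc5d from -0.027 to 0.15, Dhcr7 from -0.11 to 0.12, Fasn from -0.080 to 0.016, Srebf2 from -0.082 to 0.0065, Scap from -0.071 to 0.040, Insig1 from -0.16 to 0.056 and Stard4 from -0.038 to 0.36. The same range was -0.23 to -0.013 for the sterol median, -0.083 to -0.0073 for the fatty acid median and -0.071 to 0.056 for the regulator median. Gata3 kept its direction throughout (0.33 to 0.51 without 1 library) and passed the threshold with DESeq2 (0.41, adjusted p = 0.00712), with the covariate for Y-linked RNA (0.41, adjusted p = 0.0416 by edgeR) and on omission of wild-type replicate 1 (0.51, adjusted p = 0.0255 by edgeR). The cause of these differences was not tested.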
